A study of Homo sapiens with 10 samples.

Results

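The genes of cholesterol synthesis, of its SREBP control, of fatty acid synthesis and of LXR-driven sterol export were followed in bortezomib-resistant mantle cell lymphoma cells. They are 36 genes named for their function, chosen with earlier results of these data known. Of these, 32 had a probe set annotated to that symbol alone, and the probe set with the highest mean over the 10 arrays stood for each gene. The 4 others, FDFT1, CYP51A1, FADS1 and NR1H2, were not analysed here. All 32 were among the 14529 genes tested, of 19775 genes with a probe set. The filter asked for a value at or above the array's median on at least 2 arrays. Of the 32 genes, 31 reached it on all 10 arrays and NR1H3 on 9, so none was tested only because 1 group was high.

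The arrays held RNA of 2 cell lines in logarithmic growth: 3 HBL2 BR, 3 HBL2 PT, 2 JEKO BR and 2 JEKO PT. HBL2 and JEKO are lines of mantle cell lymphoma, a tumour of mature B cells. BR cells had acquired resistance to bortezomib, an inhibitor of the proteasome, in culture, and PT is read here as the parental cells of the same line, a reading from what is known of the study and not from the labels. Neither the drug exposure at harvest nor whether a BR line was 1 clone is given in the sources used here. Values are deposited scores on a log-like scale of unstated base, on which every array holds the same set of values from 0 to 4.99, so that differences are given in score units and never as folds. Replicates were not stated to be separate cultures, so each p-value is set against a spread between arrays that may be technical only.

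Cells make cholesterol from acetyl-CoA through the mevalonate pathway, then squalene, lanosterol and a chain of sterol intermediates. When membrane sterol is low, SCAP carries the SREBP transcription factors from the endoplasmic reticulum to the Golgi, where they are cut and released to switch on the genes of sterol and fatty acid synthesis. When sterol is plentiful, INSIG proteins hold SCAP back, and oxysterols activate the LXR receptors, which switch on the export pumps ABCA1 and ABCG1. INSIG1 is itself an SREBP target, while INSIG2 is controlled in other ways.

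The identity of the cells was read from marker genes. All 7 measured B cell markers had a mean percentile above 50, as did the mantle cell lymphoma genes CCND1 and SOX11. CD5 lay at a mean percentile of 46.4. The lowest B cell marker score was 0.473, 0.096 and 0.681 on the HBL2 BR arrays, below the array median of 0.73. On the other arrays it was 1.08 or more. Of 6 T and NK cell, 4 myeloid, 3 liver and 3 fat cell markers, 0 had a mean percentile above 50. Of 4 epithelial and stromal markers, KRT18 (51.4) and COL1A1 (70.6) did, as did the 1 measured erythroid marker, HBB (57.8), and 0 of these 5 were called in either line. The beta-actin 5' minus 3' value, a sign of RNA quality, ranged from -1.04 to -0.69 in HBL2 BR, -1.25 to -0.58 in HBL2 PT, -1.01 to -0.76 in JEKO BR and -0.82 to -0.7 in JEKO PT. The lowest array was HBL2 PT replicate 1, followed by HBL2 BR replicate 3 and then JEKO BR replicate 2.

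In HBL2, 13 of the 16 measured sterol synthesis genes were called lower in BR than in PT cells (limma, adjusted p under 0.05). All 16 had a change below 0, against 50.3% of all genes tested. Of the 32 genes, 21 fell and 0 rose (limma, adjusted p under 0.05), against 6.86% of all genes tested that fell and 4.91% that rose (11.8% called in all). The median change was -0.275 units over the 32 genes and -0.001 over all genes tested. All HBL2 BR arrays lay below all HBL2 PT arrays for 23 of the 32 genes, against 14.5% of all genes tested, while the reverse held for 12.8% of all genes. Without probe sets of the _x_at and _s_at types, which can bind related transcripts, 22 genes were left and 11 of them fell, against 676 of all 11739 genes then tested.

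Markers of B cell maturation moved in the same HBL2 comparison. All 4 plasma cell markers rose, with summed scores of 6.95 to 7.26 in HBL2 BR and 5.46 to 5.81 in HBL2 PT, and 4 of 7 B cell markers fell, with summed scores of 12.7 to 14.4 in HBL2 BR and 15.5 to 16.8 in HBL2 PT. In JEKO 1 plasma cell marker and 1 B cell marker rose. The summed scores of all 4 plasma cell markers were 5.83 to 6 in JEKO BR and 4.77 to 4.78 in JEKO PT. Those of all 7 B cell markers were 16.3 to 16.5 in JEKO BR and 16.3 to 16.6 in JEKO PT, so these sums overlapped. No marker of either list stood at a score of 0 on any array, but the lowest B cell marker score on HBL2 BR replicate 2 was 0.096. The part of this change in the sterol gene results was not tested.

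The promoters of the 6 genes with the largest falls in HBL2 are shown with that of INSIG2, the relative of INSIG1, because SREBP-driven genes share short promoter elements. Each covers 250 bases before and 50 bases after the RefSeq gene start (GRCh38.p14), 5' to 3' on the gene's strand. INSIG1 lies at chr7:155297628-155297927, MSMO1 at chr4:165327419-165327718, TM7SF2 at chr11:65111622-65111921 and INSIG2 at chr2:118088221-118088520, all on the plus strand. IDI1 lies at chr10:1056655-1056954, LSS at chr21:46228725-46229024 and DHCR7 at chr11:71448344-71448643, all on the minus strand. Capitals mark matches on either strand to CCAAT (the NF-Y element), GGGCGG (the GC box of SP1) and CACGTG (an E box).
INSIG1: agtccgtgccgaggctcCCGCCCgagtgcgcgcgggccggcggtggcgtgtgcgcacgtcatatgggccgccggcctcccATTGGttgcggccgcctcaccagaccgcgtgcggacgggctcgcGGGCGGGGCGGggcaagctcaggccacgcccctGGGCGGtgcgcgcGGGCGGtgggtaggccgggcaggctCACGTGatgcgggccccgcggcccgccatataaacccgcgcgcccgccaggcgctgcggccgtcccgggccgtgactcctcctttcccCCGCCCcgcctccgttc
MSMO1: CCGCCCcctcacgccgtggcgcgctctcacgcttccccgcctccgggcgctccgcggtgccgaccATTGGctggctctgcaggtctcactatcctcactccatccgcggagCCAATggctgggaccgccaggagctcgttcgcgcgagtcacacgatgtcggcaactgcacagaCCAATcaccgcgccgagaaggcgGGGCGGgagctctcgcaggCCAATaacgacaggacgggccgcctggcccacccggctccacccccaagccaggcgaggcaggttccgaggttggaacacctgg
IDI1: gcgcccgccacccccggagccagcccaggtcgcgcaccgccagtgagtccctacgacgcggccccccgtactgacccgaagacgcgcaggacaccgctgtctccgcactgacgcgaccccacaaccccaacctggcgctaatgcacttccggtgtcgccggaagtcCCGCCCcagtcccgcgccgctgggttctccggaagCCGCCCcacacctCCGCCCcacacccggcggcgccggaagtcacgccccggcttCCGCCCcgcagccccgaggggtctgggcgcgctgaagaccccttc
LSS: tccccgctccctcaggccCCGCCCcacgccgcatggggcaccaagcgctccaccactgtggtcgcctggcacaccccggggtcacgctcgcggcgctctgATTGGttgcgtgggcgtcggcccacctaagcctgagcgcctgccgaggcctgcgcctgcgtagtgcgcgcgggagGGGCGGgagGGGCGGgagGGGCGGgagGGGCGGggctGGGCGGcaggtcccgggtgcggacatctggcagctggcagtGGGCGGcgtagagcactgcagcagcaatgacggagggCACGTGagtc
DHCR7: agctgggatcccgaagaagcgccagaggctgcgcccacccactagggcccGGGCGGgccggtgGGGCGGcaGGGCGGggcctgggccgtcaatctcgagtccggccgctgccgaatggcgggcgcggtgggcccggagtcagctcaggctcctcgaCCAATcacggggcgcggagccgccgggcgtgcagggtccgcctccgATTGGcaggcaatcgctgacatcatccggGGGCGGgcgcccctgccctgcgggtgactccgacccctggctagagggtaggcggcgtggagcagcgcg
TM7SF2: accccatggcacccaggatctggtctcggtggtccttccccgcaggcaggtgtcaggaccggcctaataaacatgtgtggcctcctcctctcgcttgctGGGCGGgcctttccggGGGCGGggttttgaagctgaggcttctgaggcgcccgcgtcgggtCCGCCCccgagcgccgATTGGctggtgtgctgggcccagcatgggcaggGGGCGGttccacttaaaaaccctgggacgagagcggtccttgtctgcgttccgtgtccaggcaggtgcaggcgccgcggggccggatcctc
INSIG2: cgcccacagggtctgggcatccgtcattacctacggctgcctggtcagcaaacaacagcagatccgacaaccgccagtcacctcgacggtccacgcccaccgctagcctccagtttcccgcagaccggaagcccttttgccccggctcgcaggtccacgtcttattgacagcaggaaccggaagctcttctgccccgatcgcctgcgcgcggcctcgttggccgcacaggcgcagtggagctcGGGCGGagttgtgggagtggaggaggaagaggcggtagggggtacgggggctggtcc

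A further motif, the core of a sterol regulatory element written as TCACNCCAC, had no match in these 7 windows. Promoters were found for 31 of the 36 genes, 15 of them in sterol synthesis. The CCAAT box was in 12 of those 15 promoters (80%), against 35.7% of 27305 promoters of the same length from all genes in the table, coding or not. The GC box was in 14 of the 15 (93.3%), against 44.6% of all promoters. It was not particular to sterol synthesis, with 5 of 5 SREBP control, 5 of 6 fatty acid and 3 of 4 LXR and export promoters. Among tested members it was in 16 of 18 called lower in HBL2 and in 9 of 10 not called. The E box was in 2 of the 15 (13.3%), against 7.43%. The sterol element core was in 0 of the 15, against 1.15%, and its 1 match among the 31 promoters was in SREBF2. A match to these letters is a description of the sequence and not a measured site. MSMO1 had 4 CCAAT matches and 2 GC boxes in its window, LSS had 7 GC boxes, and INSIG2 had 1 GC box and no CCAAT match.

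In the mevalonate steps, 4 of 7 genes fell in HBL2. IDI1, which interconverts the isoprene units that are joined into sterols, had scores of 2.3, 2.4 and 2.3 in HBL2 BR and 2.67, 2.84 and 2.98 in HBL2 PT. The groups did not overlap, and the change was -0.50 ± 0.07 (SE; limma adjusted p = 0.00014). IDI1 was read on an _x_at probe set, and its only probe set of another type gave -0.15. ACAT2, the thiolase of the opening step, had 1.89, 1.91 and 1.82 in HBL2 BR against 2.14, 2.19 and 2.26 in HBL2 PT, a change of -0.32 ± 0.057 (adjusted p = 0.0011, limma). HMGCS1, the synthase of the next step, had 2.2, 2.31 and 2.29 in HBL2 BR against 2.56, 2.53 and 2.63 in HBL2 PT, a change of -0.31 ± 0.065 (adjusted p = 0.0044, limma). MVD, the mevalonate pathway decarboxylase, had 0.952, 0.892 and 0.897 in HBL2 BR against 1.36, 1.18 and 1.21 in HBL2 PT, a change of -0.34 ± 0.074 (adjusted p = 0.0055, limma). In each of these genes the highest BR array stayed below the lowest PT array.

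The other mevalonate genes did not pass the test in HBL2. The kinase gene MVK changed by -0.17 (adjusted p = 0.15) on its brightest probe set, but fell by 0.291 when its 4 probe sets were combined by their median (adjusted p = 0.0073). FDPS, the farnesyl diphosphate synthase, changed by -0.16 (adjusted p = 0.1) and passed without HBL2 PT replicate 3 (-0.192, adjusted p = 0.043). PMVK, the phosphomevalonate kinase, changed by -0.024, and its BR and PT arrays overlapped.

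All 9 measured genes from squalene to sterol fell in HBL2, with a median change of -0.407 units. MSMO1, the methylsterol oxidase, had scores of 2.04, 2.19 and 2.08 in HBL2 BR and 2.49, 2.57 and 2.77 in HBL2 PT. This was the largest fall of the 9, with a change of -0.51 ± 0.069 (adjusted p = 0.00011, limma). LSS, the lanosterol synthase that closes the sterol rings, had 1.88, 1.93 and 2.02 in HBL2 BR against 2.41, 2.35 and 2.56 in HBL2 PT (-0.50 ± 0.069, adjusted p = 0.00012). Its 2 dimmer probe sets gave -0.21 and -0.17, and the call was lost when the median of the LSS probe sets was taken (adjusted p = 0.17). DHCR7, the reductase of the last step to cholesterol, had 1.73, 1.69 and 1.67 in HBL2 BR against 2.2, 2.23 and 2.12 in HBL2 PT (-0.49 ± 0.064, adjusted p = 6.9e-05). The spread within each DHCR7 group was small against the gap between them, and its second probe set gave -0.47.

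TM7SF2, a sterol reductase, had 1.13, 1.19 and 1.3 in HBL2 BR and 1.79, 1.67 and 1.54 in HBL2 PT (-0.46 ± 0.069, adjusted p = 0.00026). SC5D, the sterol desaturase, had 1.64, 1.65 and 1.51 in HBL2 BR and 2, 2.07 and 1.94 in HBL2 PT (-0.41 ± 0.061, adjusted p = 0.00024). Neither gene had overlapping groups in HBL2. SQLE, the squalene epoxidase and a rate-limiting enzyme, had 2.21, 2.14 and 2 in HBL2 BR and 2.38, 2.64 and 2.42 in HBL2 PT (-0.36 ± 0.079, adjusted p = 0.0056). All 4 SQLE probe sets were lower in BR, by -0.41 to -0.13 units.

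NSDHL, a sterol dehydrogenase, fell by 0.27 (adjusted p = 0.0068), with -0.26 on its second probe set. HSD17B7, the ketosteroid reductase that works beside it, fell by 0.24 (adjusted p = 0.026), and EBP, a sterol isomerase, by 0.23 (adjusted p = 0.032). HSD17B7 had 1 probe set only, of the _x_at type, so it could not be read on another type. HSD17B7 no longer passed when HBL2 PT replicate 3 (adjusted p = 0.073), HBL2 BR replicate 1 (0.14) or HBL2 BR replicate 2 (0.075) was left out. The EBP call was lost without the same 3 arrays (adjusted p of 0.091, 0.16 and 0.12) and without HBL2 PT replicate 2 (0.053).

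**Figure D1:**
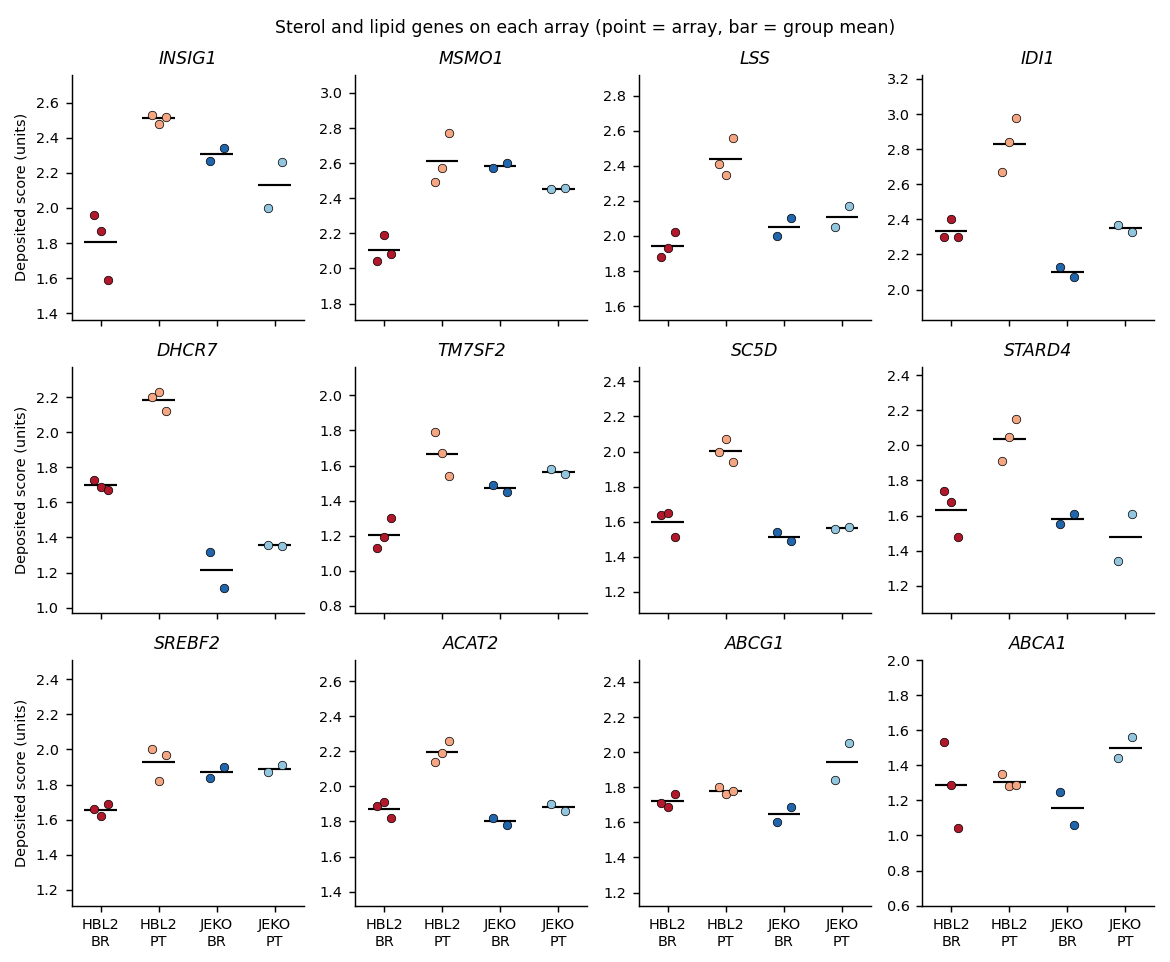
Deposited scores (vertical axis, score units, each panel spanning the same height) of 12 genes on each of the 10 arrays, grouped as HBL2 BR, HBL2 PT, JEKO BR and JEKO PT, where points are arrays and bars are group means. In the first 10 panels the HBL2 BR points lie below all HBL2 PT points, and for ABCG1 and ABCA1 the JEKO BR points lie below the JEKO PT points.

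Among the SREBP control genes, INSIG1 fell most of the 32 in HBL2. It had scores of 1.96, 1.87 and 1.59 in HBL2 BR and 2.53, 2.48 and 2.52 in HBL2 PT. The PT arrays lay close together, while HBL2 BR replicate 3 was the lowest of all 10 arrays. The change was -0.71 ± 0.085 units (adjusted p = 3e-05, limma), and the other INSIG1 probe sets gave -0.39 and -0.52. INSIG2 had 1.24, 1.31 and 1.13 in HBL2 BR against 1.29, 1.56 and 1.74 in HBL2 PT, so that its groups overlapped. Its change of -0.30 ± 0.09 was near the threshold (adjusted p = 0.037). INSIG2 no longer passed when 1 of the following arrays was left out: HBL2 PT replicate 2 (adjusted p = 0.11), replicate 3 of the same group (-0.197, adjusted p = 0.14), HBL2 BR replicate 1 (0.085), HBL2 BR replicate 3 (0.14) or either JEKO BR array (0.054 each).

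SREBF2, which encodes the SREBP that chiefly drives sterol genes, had 1.66, 1.62 and 1.69 in HBL2 BR and 2, 1.82 and 1.97 in HBL2 PT. Its fall of 0.28 ± 0.061 (adjusted p = 0.0062) was called in all alternatives run, and its other probe sets gave -0.29 and -0.14. SREBF1, the gene of the SREBPs that act on lipid genes more broadly, had 1.24, 1.16 and 1.24 in HBL2 BR and 1.44, 1.29 and 1.33 in HBL2 PT. Its groups did not overlap, but the change of -0.14 did not pass (adjusted p = 0.22). SCAP, the escort protein, changed by -0.01 (adjusted p = 0.96). STARD4, a cytosolic sterol carrier, had 1.74, 1.68 and 1.48 in HBL2 BR and 1.91, 2.05 and 2.15 in HBL2 PT, a fall of 0.40 ± 0.085 (adjusted p = 0.0042).

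Of 6 measured fatty acid genes, 4 fell in HBL2, with a median change of -0.213 units. FADS2, a desaturase of polyunsaturated fatty acids, had 1.5, 1.44 and 1.68 in HBL2 BR and 1.94, 1.82 and 1.97 in HBL2 PT (-0.37 ± 0.069, adjusted p = 0.0015). SCD, the stearoyl-CoA desaturase, had 2.52, 2.57 and 2.53 in HBL2 BR and 2.7, 2.86 and 2.77 in HBL2 PT (-0.23 ± 0.057, adjusted p = 0.012). The SCD groups were apart and narrow, yet SCD no longer passed with HBL2 PT replicate 2 left out (adjusted p = 0.067), with HBL2 BR replicate 1 left out (0.056) or when its 4 probe sets were combined by their median (-0.122, adjusted p = 0.52). ELOVL6, a fatty acid elongase, fell by 0.30 (adjusted p = 0.034), a call lost on leaving out any 1 HBL2 array, HBL2 PT replicate 3 excepted (adjusted p = 0.065 to 0.12). FASN, the fatty acid synthase, fell by 0.19 (adjusted p = 0.045), a call lost without any 1 of the 10 arrays (adjusted p = 0.051 to 0.16). ACLY, which supplies cytosolic acetyl-CoA, and ACACA, the acetyl-CoA carboxylase, changed by -0.12 and -0.04 (adjusted p = 0.31 and 0.8), with overlapping groups.

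The LXR and export genes did not pass the test in HBL2, with 0 of 4 called and a median change of -0.039 units. ABCG1 had 1.71, 1.69 and 1.76 in HBL2 BR and 1.8, 1.76 and 1.78 in HBL2 PT. ABCA1 had 1.53, 1.29 and 1.04 in HBL2 BR and 1.35, 1.28 and 1.29 in HBL2 PT, and it varied more among the BR arrays than between the groups. NR1H3, the gene of LXR alpha, changed by 0.073, and MYLIP, an LXR target that marks lipoprotein receptors for breakdown, by -0.14 (adjusted p = 0.67 and 0.22).

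**Figure D2:**
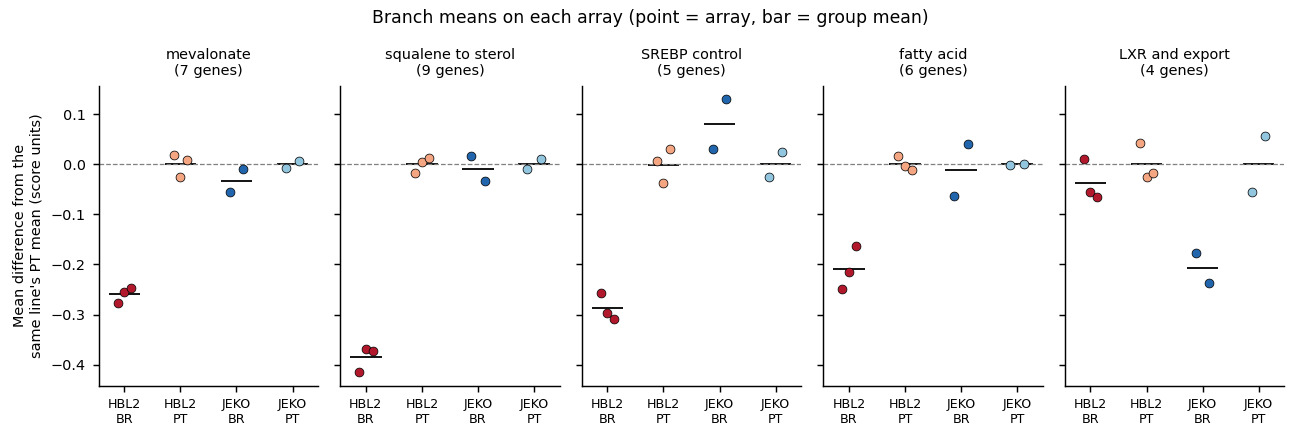
Mean over the tested genes of a branch of the difference from the same line's PT mean (vertical axis, score units) on each array, where points are arrays and bars are group means. The 3 HBL2 BR arrays lie between -0.415 and -0.368 for the squalene to sterol genes, and the JEKO BR arrays lie at -0.178 and -0.237 in the LXR and export branch.

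Over the 16 measured sterol synthesis genes, the mean difference from the HBL2 PT level was -0.355, -0.318 and -0.317 in the HBL2 BR arrays, whose beta-actin values were -0.69, -0.83 and -1.04. It was -0.002, -0.008 and 0.011 in the HBL2 PT arrays, whose beta-actin values were -1.25, -0.86 and -0.58. With beta-actin as a covariate 22 of the 32 genes fell in HBL2, against 1182 of all 14529 genes tested (997 without it). With the 3 arrays of lowest beta-actin value left out 18 of the 32 fell, against 764 of all 13720 genes tested.

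In JEKO, sterol synthesis genes were not shown to change. None of the 16 measured genes passed, and their median change was -0.023 units, against 0.012 over all genes tested. Over all 32 genes 1 fell and 0 rose, against 1.72% of all genes tested that fell and 2.56% that rose (4.28% called in all), and 3 more had an unadjusted p under 0.05. Arrays did not overlap for 10 genes lower and 5 genes higher in JEKO BR, against 22.5% and 28.3% of all genes tested. With 2 arrays a group, the 95% intervals of the JEKO changes were wider than those of the HBL2 changes in the same fit. For MSMO1 the interval ran from -0.05 to 0.31 in JEKO and from -0.65 to -0.36 in HBL2. For INSIG1 it ran from -0.05 to 0.40 in JEKO and from -0.89 to -0.53 in HBL2. For LSS it was -0.24 to 0.12 in JEKO and -0.64 to -0.35 in HBL2. For DHCR7 it was -0.30 to 0.03 in JEKO and -0.62 to -0.35 in HBL2.

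INSIG1 had 2.27 and 2.34 in JEKO BR and 2 and 2.26 in JEKO PT, so that both BR arrays were the higher ones (0.18 ± 0.1, adjusted p = 0.42). MSMO1 had 2.57 and 2.6 in JEKO BR and 2.45 and 2.46 in JEKO PT (0.13 ± 0.085, adjusted p = 0.47). Both changes were above 0 without passing the test. IDI1 had 2.13 and 2.07 in JEKO BR and 2.37 and 2.33 in JEKO PT. Its change of -0.25 ± 0.086 was the most negative of the sterol synthesis genes in JEKO (adjusted p = 0.12), and it passed with array weights (0.046), in a fit of JEKO alone (0.031), with percentile ranks (0.022) and without HBL2 PT replicate 1 (0.048) or 3 (0.042). DHCR7 had 1.32 and 1.11 in JEKO BR and 1.36 and 1.35 in JEKO PT (adjusted p = 0.41).

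The gene that fell in JEKO was ABCG1, a sterol export pump. It had 1.6 and 1.69 in JEKO BR and 1.84 and 2.05 in JEKO PT, a change of -0.30 ± 0.078 (adjusted p = 0.04). ABCG1 no longer passed on leaving out HBL2 PT replicate 2 (adjusted p = 0.057), HBL2 BR replicate 1 (0.059), HBL2 BR replicate 2 (0.062), JEKO PT replicate 2 (-0.193, 0.33), either JEKO BR array (0.23 for replicate 1 and 0.15 for replicate 2). ABCA1, the companion pump, had 1.25 and 1.06 in JEKO BR and 1.44 and 1.56 in JEKO PT (-0.34 ± 0.12, adjusted p = 0.12). It passed when its probe sets were combined by their median (-0.517, adjusted p = 0.0025) and in a fit of JEKO alone (0.038). All 8 probe sets of these pumps, 2 dim ABCA1 sets included, were lower in JEKO BR, by -0.69 to -0.17 units. NR1H3 had 0.737 and 0.485 in JEKO BR and 0.881 and 0.875 in JEKO PT (-0.27 ± 0.1, adjusted p = 0.18). JEKO BR replicate 2, the lower array for ABCA1 and NR1H3 but the higher for ABCG1, also had the lowest beta-actin value in JEKO. With beta-actin as a covariate ABCA1 changed by -0.312 (adjusted p = 0.14, limma) and NR1H3 by -0.288 (adjusted p = 0.13). In the same fit ABCG1 changed by -0.315 (adjusted p = 0.022). With the 3 arrays of lowest beta-actin value left out, JEKO BR replicate 2 among them, ABCG1 changed by -0.343 and did not pass.

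**Figure D3:**
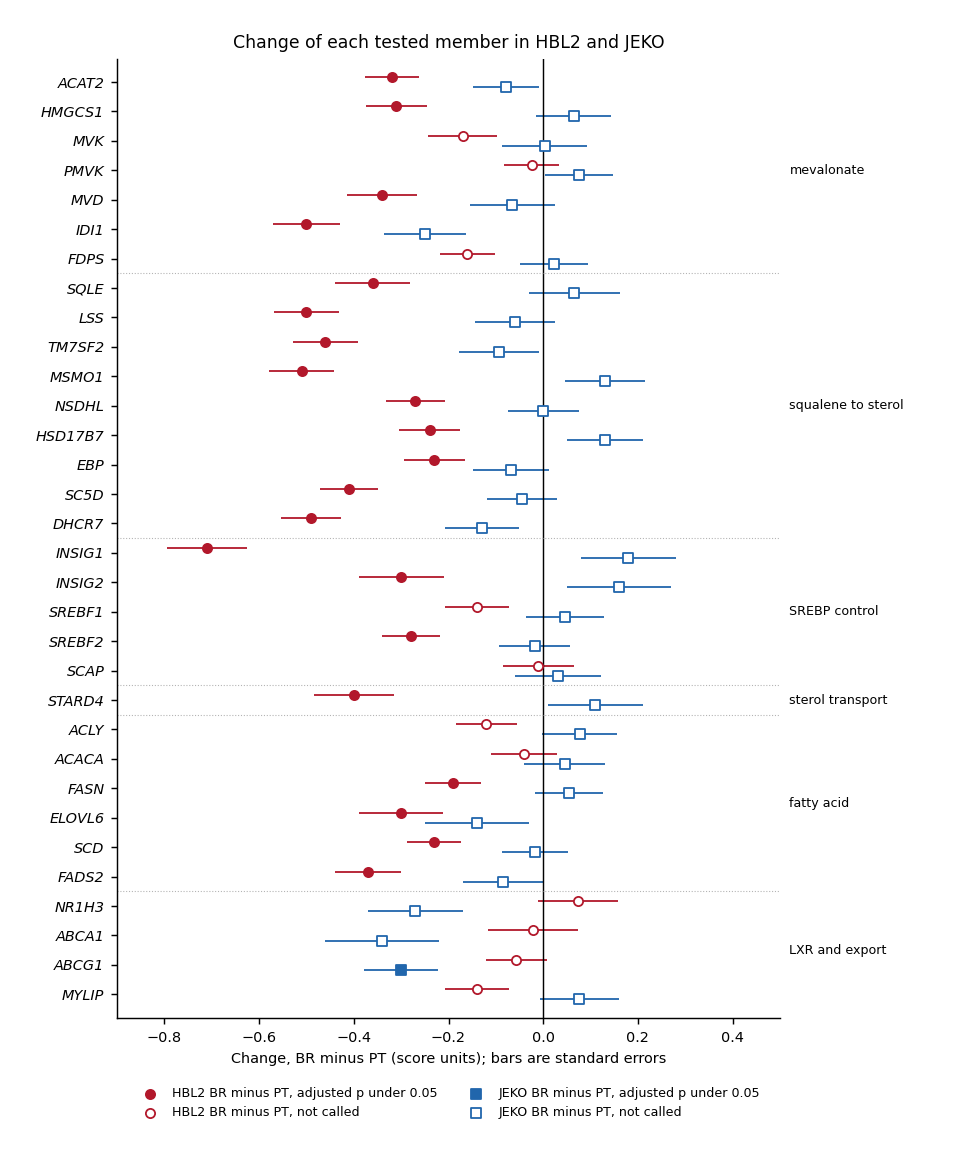
Change from PT to BR cells (horizontal axis, score units, with standard errors) of the 32 tested genes in HBL2 (circles) and JEKO (squares), ordered by branch, where filled symbols passed the test. The 21 filled HBL2 symbols all lie left of 0, and the filled JEKO symbol is ABCG1 at -0.30.

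The changes of the lines were compared directly in the same fit, as the HBL2 change minus the JEKO change. This difference passed for 10 of the 32 genes, all with the lower change in HBL2, against 5.76% of all genes tested in that direction, 2.95% in the other and 8.71% in both. They were INSIG1 (-0.88 ± 0.13, adjusted p = 0.00063), MSMO1 (-0.64 ± 0.11, adjusted p = 0.0016), STARD4 (-0.51), LSS (-0.44), SQLE (-0.43), HMGCS1 (-0.37), TM7SF2 (-0.37), HSD17B7 (-0.36), SC5D (-0.36) and DHCR7 (-0.35). The other 8 had adjusted p between 0.018 and 0.046. MSMO1 was called in all alternatives run, and INSIG1 in all but percentile ranks (adjusted p = 0.059). The count was 6 without HBL2 PT replicate 2, 5 without HBL2 BR replicate 1, HBL2 BR replicate 2, JEKO PT replicate 2 or JEKO BR replicate 1, 3 without JEKO BR replicate 2 and 2 without JEKO PT replicate 1. For IDI1 the difference was -0.25 (adjusted p = 0.19), and for ABCG1 and ABCA1 it was 0.24 and 0.32 (adjusted p = 0.16 and 0.22). Across the 32 genes the changes of the lines, which share no arrays, had a Pearson correlation of -0.21 and a Spearman correlation of -0.06, as a description.

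The PT cells of the lines differed in the level of these genes. Of the 32 genes, 19 were higher and 0 lower in HBL2 PT than in JEKO PT, against 13.9% of all genes tested that were higher and 9.25% that were lower (23.1% called in all). All HBL2 PT arrays lay above all JEKO PT arrays for 24 of the 32 genes and below them for 2, against 26.3% and 20.9% of all genes tested. The median difference was 0.264 units over the 32 genes and 0.014 over all genes tested. DHCR7 stood furthest apart, with 2.2, 2.23 and 2.12 in HBL2 PT and 1.36 and 1.35 in JEKO PT (0.83 ± 0.071, adjusted p = 4.6e-07). STARD4 differed by 0.57 ± 0.095 (adjusted p = 4e-04), NSDHL by 0.53 ± 0.069 (adjusted p = 4.4e-05) and HMGCS1 by 0.48 ± 0.072 (adjusted p = 0.00016). IDI1 differed by 0.48 on its _x_at probe set, but by -0.111 (adjusted p = 0.37) without _x_at and _s_at probe sets. ABCA1 and ABCG1 lay lower in HBL2 PT on every array, by -0.19 and -0.16 units (adjusted p = 0.23 and 0.12). When probe sets were combined by their median both passed, ABCA1 at -0.368 (adjusted p = 0.0022) and ABCG1 at -0.253 (adjusted p = 0.0047), and the count became 14 genes higher and 3 lower. ABCG1 also passed with _x_at and _s_at sets left out (-0.278, adjusted p = 0.019) and without JEKO PT replicate 1 (-0.268, adjusted p = 0.043).

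This comparison shares the HBL2 PT arrays with the HBL2 change, so the levels are given side by side. Among the 16 measured sterol synthesis genes, the HBL2 PT mean was at or below the highest JEKO array for 0 genes and the HBL2 BR mean for 9. For SC5D the group means were 1.6 in HBL2 BR, 2.01 in HBL2 PT, 1.52 in JEKO BR and 1.56 in JEKO PT. For ACAT2 they were 1.87 in HBL2 BR, 2.2 in HBL2 PT, 1.8 in JEKO BR and 1.88 in JEKO PT. DHCR7 remained higher in HBL2 BR (1.7) than in JEKO BR (1.22). INSIG1 and MSMO1 lay lower in HBL2 BR (1.81 and 2.1) than in JEKO BR (2.31 and 2.58).

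**Figure D4:**
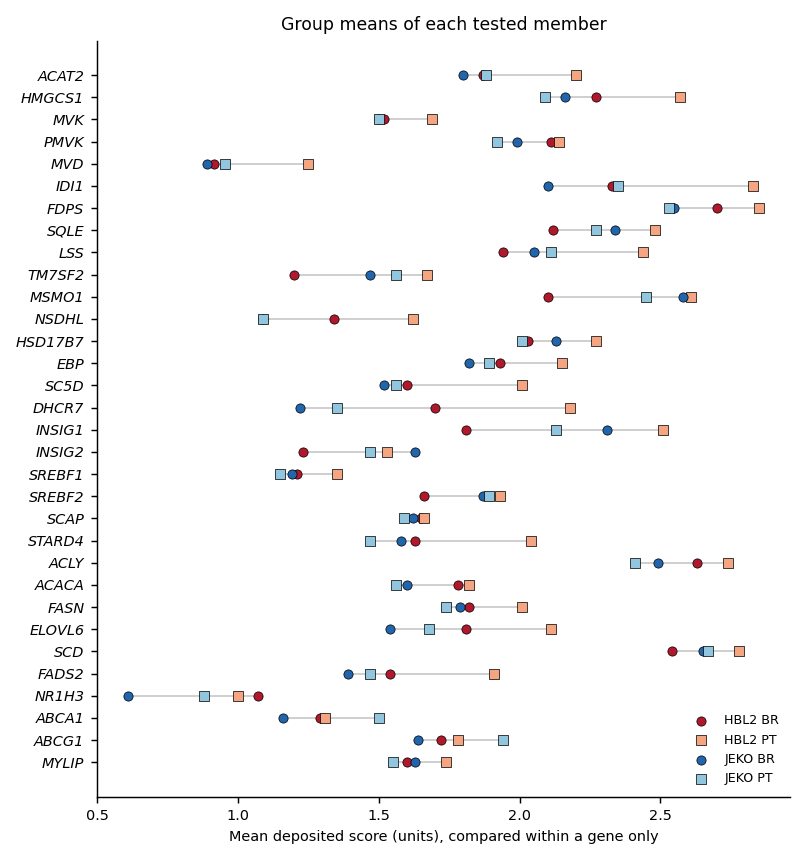
Mean deposited score (horizontal axis, score units, to be compared within a gene only) of the 32 tested genes in HBL2 BR, HBL2 PT, JEKO BR and JEKO PT. For all 16 sterol synthesis genes (the rows from ACAT2 to DHCR7) the HBL2 PT square is the rightmost symbol.

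Of the 32 genes, 21 had more than 1 probe set. Over all of them, 31 of 39 further probe sets that passed the filter were lower in HBL2 BR. For the genes that fell in HBL2, 23 of 24 were lower. The exception was a dim SCD probe set of the _x_at type, at 0.06 units.

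A second list held 57 other genes of sterol and lipid metabolism, of which 50 were tested. In HBL2, 11 of these 50 fell and ACSL1 rose, against 6.86% of all genes tested that fell and 4.91% that rose. Their median change was -0.044 units, against -0.001 over all genes tested. FADS3, the neighbour of FADS2 in the FADS gene cluster on chromosome 11, had 0.726, 0.486 and 0.49 in HBL2 BR and 1.84, 1.66 and 1.69 in HBL2 PT, a fall of 1.16 ± 0.076 (adjusted p = 4e-08). FADS3 reached the array median on 7 arrays, none of them HBL2 BR, and its other probe set gave -0.84. ACSL1, which activates long-chain fatty acids, had 2.19, 2.22 and 2.08 in HBL2 BR and 1.55, 1.68 and 1.72 in HBL2 PT, a rise of 0.52 ± 0.064 (adjusted p = 4.3e-05). SPRING1, a factor needed for SREBP activation, fell by 0.45 (adjusted p = 4.9e-05), ERG28, a scaffold of sterol enzymes, by 0.41 (adjusted p = 0.00017) and NPC2, which moves cholesterol out of lysosomes, by 0.37 (adjusted p = 0.00056). The SPRING1 value came from the brightest of 5 probe sets, the other 4 of which gave -0.23 to 0.04. ERG28 turned to 0.085 (adjusted p = 0.67) without _x_at and _s_at probe sets.

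MMAB, the neighbour of MVK on chromosome 12, was named after its values were seen. It had 1.55, 1.55 and 1.56 in HBL2 BR and 1.79, 1.84 and 1.84 in HBL2 PT, a fall of 0.27 ± 0.055 (adjusted p = 0.0037), beside -0.17 for MVK. In JEKO, of the 50 tested genes of the second list, 1 fell and 0 rose, against 1.72% of all genes tested that fell and 2.56% that rose. RDH11, a retinol dehydrogenase, had 1.64 and 1.61 in JEKO BR and 1.92 and 2.02 in JEKO PT, a fall of 0.34 ± 0.084 (adjusted p = 0.031). That call was lost without any 1 JEKO array (adjusted p = 0.09 to 0.22). The other RDH11 probe sets gave -0.13, -0.19 and -0.13, and the median over all 4 changed by -0.16 (adjusted p = 0.22).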

How the data were processed

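The 10 arrays were compared through the authors' deposited score table, which lists 54675 probe sets. Per the submitters' processing notes the tool was MAS5, of unstated version; what followed it is not given here. Sorted scores were identical on all arrays, so each deposited score reflects a rank, a shift of most genes one way cannot be seen, and precision is limited by how few arrays there are. Symbols came from the platform annotation: 41091 probe sets had 1, 1801 several and 11721 none listed, and 41037 were found in the RefSeq gene table (GRCh38.p14). Genes were tested with limma 3.58.1 in R 4.3.3 (4 group means, intensity trend, Benjamini-Hochberg over 14529 genes), without a replicate block, in 4 two-sided comparisons. A gene was called at an adjusted p under 0.05. The brightest passing probe set stood for a gene. The planned log2 step for linear values did not apply. Named genes were all members, and up to 5 called genes of the second list with the largest change in each line. Members and lists were chosen with earlier results of these data known. The fit was tested on simulated data. Alternatives covered the filter, variance model, probe sets, scale, RNA quality, the replicate block and each array left out. Promoters are from RefSeq (GRCh38.p14).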

Additional observations from a re-analysis of the deposited data

Results flagged for a closer look

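In 10 genes the change from PT to BR cells differed between HBL2 and JEKO by the test of the difference itself (limma, adjusted p under 0.05). The HBL2 change minus the JEKO change was -0.88 for INSIG1, -0.64 for MSMO1, -0.51 for STARD4, -0.44 for LSS, -0.43 for SQLE, -0.37 for HMGCS1, -0.37 for TM7SF2, -0.36 for HSD17B7, -0.36 for SC5D and -0.35 for DHCR7. In 6 of the 10 (INSIG1, MSMO1, STARD4, SQLE, HMGCS1 and HSD17B7) the HBL2 change was below 0 and the JEKO change above 0, but 0 of these JEKO changes passed the test. No group had 4 or more arrays, so single arrays were not screened for standing apart.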

How the results depend on the processing

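With 2 or 3 arrays a group, the number of arrays limits these results, and each JEKO call leans on a pair of arrays. Of the 21 members that fell in HBL2, 8 kept their call in every alternative run (ACAT2, DHCR7, INSIG1, MSMO1, SC5D, SQLE, SREBF2 and TM7SF2), as did 1 of 10 differences between the lines, 7 of 19 differences between the PT cells and 0 of 1 in JEKO. However, ACAT2, DHCR7, SC5D and TM7SF2 had passing probe sets of the _s_at type only. The alternative without _x_at and _s_at probe sets therefore could not test them, in HBL2 or between the PT cells. Leaving out 1 array gave 15 to 20 members called in HBL2, 0 to 2 in JEKO, 2 to 10 for the difference and 13 to 19 between the PT cells. Over all genes it gave 1118 to 1648, against 1711, in HBL2, 117 to 948, against 622, in JEKO, 667 to 1473, against 1266, for the difference and 1979 to 3627, against 3361, between the PT cells. Without _x_at and _s_at probe sets 22 members were tested, and 11 were called in HBL2, 0 in JEKO, 6 for the difference and 10 between the PT cells. With array weights 2684 genes were called in HBL2, 1032 in JEKO and 1948 for the difference, and 2 members in JEKO. Without a trend 389 genes and 0 members were called in JEKO and 2 members for the difference. In JEKO 0 members were called without a filter, 3 in a fit of JEKO alone, 3 with the median over probe sets and 2 with percentile ranks, which left 1 for the difference. In HBL2 percentile ranks gave 14 of 32 members and 1284 genes called. The fit without a trend gave 16 members and 1431 genes there. The members lay at mean percentiles of 61.3 to 98.7, and whether this bears on the counts with percentile ranks was not tested. With the 3 arrays of lowest beta-actin value left out, an alternative chosen after seeing the data, 135 genes and 0 members were called in JEKO and 608 genes and 4 members for the difference.

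Directions turned for IDI1 between the PT cells without _x_at and _s_at probe sets (-0.111), for SREBF2 there with the median over probe sets (-0.193, adjusted p = 0.04), and for ERG28 without _x_at and _s_at probe sets (0.085 in HBL2, 0.044 for the difference and -0.035 between the PT cells). The cause was not tested. Deviations from the group means of same-numbered BR and PT arrays correlated at 0.02, 0.14 and 0.01 in HBL2 and 0.08 in JEKO. Differently numbered HBL2 arrays gave -0.2 to 0.15. With so few arrays a group these deviations are tied to each other. The values therefore cannot show whether same-numbered arrays were paired. With the replicate block 21 members were called in HBL2, 1 in JEKO and 9 for the difference, and 1741, 601 and 1257 genes.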
